A study of Mus musculus with 24 samples.

Results

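The genes described here encode the extracellular matrix that fat cells and their neighbours lay down. Their products are collagens, proteoglycans, dermatopontin, and elastic fibre, basement membrane and matricellular proteins. The genes are a named list of 36, taken through every probe set annotated with exactly 1 symbol from the list. Of these genes, 33 had such a probe set, with 54 probe sets among the 12488 on the array. Fbn1, Spp1 and Thbs1 had none and were not analysed here. A filter on dim signals kept 48 of the 54 probe sets for testing and left at least 1 for each of the 33 genes. Where several probe sets of a gene were tested, the one brightest on average stands for it, and the others are named where they differ.

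Mouse fat cells in primary culture were measured on 24 Affymetrix Murine Genome U74Av2 arrays. Brown fat cells were collected 7 days after isolation, labelled differentiated (n = 5 arrays), or 4 days after it, labelled not differentiated (n = 5). White fat cells were collected under the same labels at day 7 (n = 6) and at day 4 (n = 8). All groups share in vitro culture, Trizol extraction of total RNA and a single round of biotin labelling from 5 ug. The labels used here name no strain, genotype, depot or added agent. Nothing in them says that the arrays within a group stem from separate mice or dishes. The p-values therefore describe array-to-array spread, part of which may be technical. Arrays are named by the number in their label. Every brown array has a lower number than every white array, so handling and cell type cannot be told apart.

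Collagen fibrils give fat its tensile scaffold, and small leucine-rich proteoglycans such as decorin and lumican bind these fibrils and control their thickness and spacing. Each adipocyte is also wrapped in a basement membrane of type IV collagen, laminin and nidogen, and type VI collagen links that membrane to the surrounding fibres. Matricellular proteins such as SPARC, thrombospondins and periostin sit in the same matrix and modulate how cells attach to it, and preadipocytes are known to replace a fibronectin-rich matrix with a basement membrane as they mature.

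The labels were checked against marker genes. Adipoq, which encodes adiponectin, had median signals of 5604 at day 7 and 2476 at day 4 in brown cells, and 5895 at day 7 and 2074 at day 4 in white cells. Not all adipocyte markers followed it. Of 7 tested, 2 were called higher at day 7 in brown and 4 in white cells, and 0 were lower. The brown medians of Cebpa were 3039 at day 7 and 3749 at day 4. All 5 tested brown adipocyte markers were higher in brown than in white cells on both days (limma, Benjamini-Hochberg adjusted p under 0.05). The probe set of Ucp1, the heat-producing uncoupling protein, was too dim to be tested, with medians of 53.1 at day 7 and 19.4 at day 4 in brown cells, and 8.71 at day 7 and 5.34 at day 4 in white cells. Pairwise array correlations within groups lay between 0.890 and 0.964. Brown day 7 array 22 was the lowest of its 5 arrays for 28 of the 33 matrix genes, and white day 4 array 51 was the lowest of its 8 for 19. Brown day 4 array 19 was the lowest of its 5 for 17, and white day 4 array 34 was the highest of its 8 for 18. The ratio of the 3' to the 5' Gapdh probe set, a measure of RNA integrity, was 0.889 ± 0.0379 at day 7 and 0.884 ± 0.0825 at day 4 in brown cells, and 1.36 ± 0.204 at day 7 and 0.943 ± 0.0955 at day 4 in white cells (mean ± SD). It differed between white day 7 and white day 4 (exact permutation p = 0.000666, adjusted over 4 comparisons 0.00266) and between brown day 7 and white day 7 (exact permutation p = 0.00649, adjusted over 4 comparisons 0.0130). The brown days (exact permutation p = 0.857, adjusted over 4 comparisons 0.857) and the cell types at day 4 (exact permutation p = 0.274, adjusted over 4 comparisons 0.366) missed the threshold.

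More matrix genes passed as higher than as lower at day 7 in both cell types. In brown cells 13 of the 33 genes rose and 0 fell (limma, Benjamini-Hochberg adjusted p under 0.05; 17 and 0 at an unadjusted p under 0.05), with a median log2 difference of 0.49 over all 33. Of all 6281 genes tested, 13.0% were called in that comparison, 6.46% as higher and 6.50% as lower, and their median was 0.02. In white cells 13 genes rose, 1 fell and the median was 0.47, where 19.5% of all genes tested were called, 9.03% as higher and 10.5% as lower, with a median of 0.02. The genes that rose in both cell types numbered 11, which is 84.6% of either list: Col3a1, Col4a1, Col4a2, Dcn, Lum, Fmod, Dpt, Sparc, Thbs2, Postn and Mgp. Col1a1 and Col1a2 passed in brown cells alone, Col5a1 and Lamb1 in white cells alone, and versican (Vcan) fell in white cells. None of the 33 genes passed the test of the difference between the brown and the white change itself in limma, where 0.207% of all genes tested did, 0.159% with the higher and 0.0478% with the lower value in brown cells. At an unadjusted p under 0.05 there were 3, Col1a1, Col3a1 and Vcan, all with the higher value in brown cells.

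More matrix genes passed as lower than as higher in brown cells on both days. At day 7 brown cells had lower signals for 14 of the 33 genes and higher signals for 3, with a median of -0.51 log2. Of all genes tested 25.5% were called there, 12.3% as lower and 13.2% as higher in brown, and the median was 0.00. At day 4 brown cells were lower for 18 genes and higher for 0, also at an unadjusted p under 0.05, with a median of -0.61, where 24.5% of all genes tested were called, 12.8% as lower and 11.7% as higher in brown, and the median was 0.01. All 14 genes lower at day 7 were among the 18 lower at day 4, which is 77.8% of the day 4 list. The other 4, Col5a2, Nid1, Lox and Thbs2, passed at day 4 alone. The 3 genes higher in brown cells at day 7 were Col18a1, Col6a3 and Vcan. In these bulk RNA samples, fewer cells of a type and less RNA per cell cannot be told apart.

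Complete separation of the arrays was counted as well. The day 7 arrays did not overlap the day 4 arrays for 9 of the 33 genes in brown cells, against 9.98% of all genes tested, and for 5 genes in white cells, against 5.06%. Brown and white arrays did not overlap for 14 genes at day 7 and 10 genes at day 4, against 18.5% and 8.07% of all genes tested. When the Gapdh ratio was added to the fit, all 13 brown day calls and all 18 day 4 calls between the cell types remained. None of the 14 white day calls remained, with differences at a median of 0.718 times their size and standard errors at a median of 0.40 in place of 0.23. Of the 17 day 7 calls between the cell types, 4 remained, those of Dpt, Fbln1, Fbln2 and Col18a1. All of these genes kept their direction in that fit. The part of RNA integrity in the white day 7 values was not tested further.

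**Figure D1:**
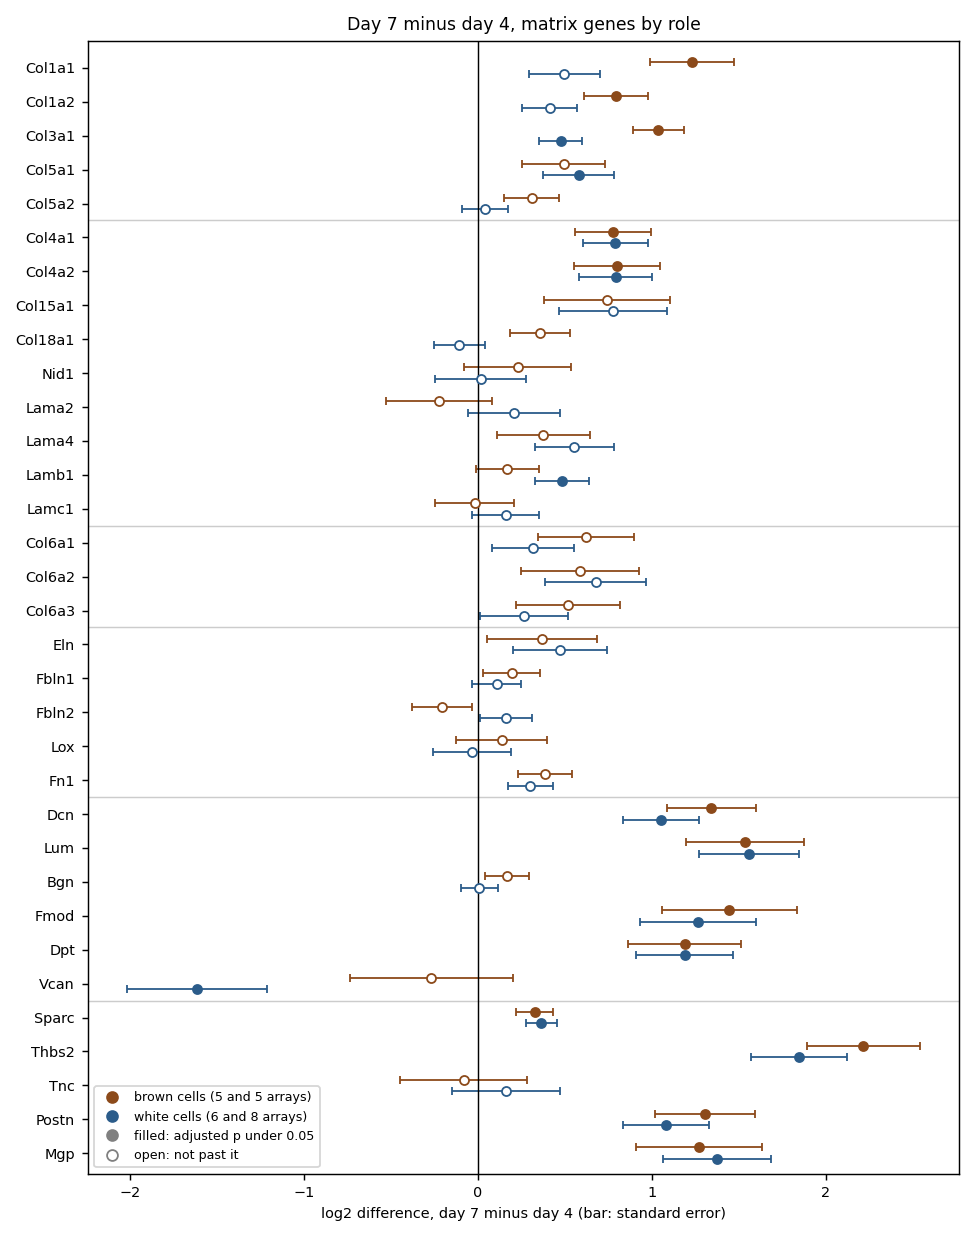
Log2 difference, day 7 minus day 4, with its standard error, for the 33 matrix genes in brown cells (5 and 5 arrays) and white cells (6 and 8 arrays), grouped from fibril collagens at the top to matricellular proteins at the bottom. Filled points passed the test, 13 genes in brown and 14 in white cells, and the filled point left of 0 is Vcan in white cells.

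Fibrillar collagens were the first group. Types I and III form the bulk of the fibrils and type V sets their diameter. Of the 5 chains, 3 rose in brown cells, 2 rose in white cells, 4 were lower in brown at day 7 and all 5 were lower in brown at day 4. Among all genes tested, 6.46% rose in brown and 9.03% in white cells, and 12.3% and 12.8% were lower in brown at day 7 and day 4. The median difference between days was 0.79 log2 in brown and 0.48 in white cells.

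Col1a1, the alpha 1 chain of type I collagen, had signals of 5704, 4902, 5471, 5606 and 2749 on the brown day 7 arrays (07, 08, 11, 12 and 22, the order used throughout), against 2048, 2589.9, 1729.6, 2324 and 1564 on the brown day 4 arrays (05, 06, 09, 10 and 19). The lowest, median and highest signals of white cells were 8187, 9208 and 10623 at day 7, against 2836, 7066 and 9849 at day 4. Every brown day 7 array lay above every brown day 4 array and below every white day 7 array, and array 22 was much the lowest of its group. The brown rise was 1.23 ± 0.24 log2 (limma, adjusted p = 0.00134), while the white difference of 0.50 ± 0.21 missed the threshold (adjusted p = 0.0914) and passed it without white day 4 array 34, at 0.58 (adjusted p = 0.0422). Brown minus white was -0.98 ± 0.23 (adjusted p = 0.00261) at day 7 and -1.71 ± 0.22 (adjusted p = 2.01e-06) at day 4. A second Col1a1 probe set, 103709_at, gave 1.53 ± 0.23 (adjusted p = 0.000141) in brown and 0.68 ± 0.20 (adjusted p = 0.0186) in white cells, so the white rise is called by that probe set and not by the brighter one. That white call was lost without white day 4 arrays 45 and 51, at 0.47 (adjusted p = 0.0739).

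Col1a2 encodes the alpha 2 chain of the same molecule. It had signals of 5511, 5396, 5814, 5665 and 3337 on the brown day 7 arrays and 2968, 3053, 2891, 3223 and 2482 on the brown day 4 arrays. White cells had lowest, median and highest signals of 7653, 9315 and 9757 at day 7 and 4005, 7087 and 9892 at day 4. The brown days did not overlap, the white days did, and brown arrays lay below white arrays on each day. Its rise in brown cells was 0.79 ± 0.18 (adjusted p = 0.00496), beside 0.41 ± 0.16 (adjusted p = 0.0664) in white cells. The white value passed without white day 4 array 34, 37 or 38 (adjusted p = 0.0214, 0.0456 and 0.0494). Brown minus white was -0.84 ± 0.18 (adjusted p = 0.000959) at day 7 and -1.22 ± 0.17 (adjusted p = 6.03e-06) at day 4. A dimmer probe set of the gene, 161156_r_at, did not share this pattern, with day differences of -0.04 ± 0.13 (adjusted p = 0.899) in brown and -0.01 ± 0.11 (adjusted p = 0.959) in white cells and a brown minus white difference at day 4 of 0.33 ± 0.12 (adjusted p = 0.0471). That day 4 call was lost on leaving out any 1 of 10 arrays. With the mean of both probe sets the day 7 difference between the cell types was -0.27 (adjusted p = 0.0829).

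Col3a1, the only chain of type III collagen, read 4044, 4012, 4758, 4555 and 3281 on brown day 7 arrays and 2437, 2259, 1744, 2037 and 1625 on brown day 4 arrays. In white cells it read 6470.3, 7472 and 8664 (lowest, median, highest) at day 7 and 4109.6, 5255 and 6892 at day 4. By their medians brown day 4 was lowest, then brown day 7 and white day 4, with white day 7 at the top, and only the white days overlapped within a cell type. It rose by 1.04 ± 0.15 in brown (adjusted p = 7.82e-05) and by 0.48 ± 0.12 in white cells (adjusted p = 0.00859). Brown minus white was -0.87 ± 0.14 (adjusted p = 4.24e-05) at day 7 and -1.44 ± 0.13 (adjusted p = 6.55e-09) at day 4. All 3 Col3a1 probe sets rose in brown cells and were lower in brown on both days. Of the 2 dimmer ones, 102990_at measured 0.55 ± 0.25 (adjusted p = 0.123) between the white days and 161984_f_at 0.53 ± 0.18 (adjusted p = 0.0440), a call lost without any 1 of arrays 35, 36, 39 and 40 of white day 7 and arrays 41, 42, 45 and 51 of white day 4 (adjusted p between 0.0558 and 0.0978).

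The type V chains had 1 call between days, that of Col5a1 in white cells. Col5a1 signals were 553, 473, 648, 492 and 278 on brown day 7 arrays, 389.9, 322, 352, 288 and 331 on brown day 4 arrays, and 743, 949 and 1025 (lowest, median, highest) in white cells at day 7 against 283, 687 and 858 at day 4. Brown and white arrays were apart at day 7 and overlapped at day 4. The white rise of 0.58 ± 0.20 (adjusted p = 0.0461) was close to the threshold, and it was lost without any 1 of arrays 35, 36, 39, 40 and 44 of white day 7 and arrays 33, 41, 45 and 51 of white day 4 (adjusted p between 0.0528 and 0.0991) and, without white day 4 arrays 45 and 51 together, measured 0.30 (adjusted p = 0.216). The brown day difference was 0.49 ± 0.24 (adjusted p = 0.194), and it passed without brown day 7 array 22, at 0.68 (adjusted p = 0.0486). Col5a1 was lower in brown cells by 0.93 ± 0.23 at day 7 (adjusted p = 0.00337) and by 0.85 ± 0.21 at day 4 (adjusted p = 0.00507). Its second probe set, 101080_at, differed on 3 of these: it rose in brown cells at 0.70 ± 0.21 (adjusted p = 0.0312), did not pass in white cells at 0.04 ± 0.18 (adjusted p = 0.917) and did not pass between the cell types at day 7 at -0.12 ± 0.20 (adjusted p = 0.709). Its brown call was lost without any 1 of arrays 07, 08, 11 and 12 of brown day 7 and arrays 06, 09, 10 and 19 of brown day 4 (adjusted p between 0.0515 and 0.0893). With the mean of both probe sets the white difference was 0.31 (adjusted p = 0.241) and the day 7 difference between the cell types -0.53 (adjusted p = 0.0541).

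Col5a2, the partner chain of Col5a1, read 2986, 2721, 3535, 3431 and 1821 on brown day 7 arrays and 2480.5, 2171, 2561, 2875 and 1554 on brown day 4 arrays. White cells read 3139, 3600.3 and 3819.5 (lowest, median, highest) at day 7 and 3015, 3433 and 4225 at day 4. At day 4 every brown array lay below every white array, while the day 7 arrays of the cell types overlapped. It was lower in brown at day 4 by 0.61 ± 0.14 (adjusted p = 0.00263), with -0.34 ± 0.15 (adjusted p = 0.101) at day 7. Between days it measured 0.31 ± 0.16 (adjusted p = 0.221) in brown and 0.04 ± 0.13 (adjusted p = 0.864) in white cells. Without brown day 7 array 22 the brown day value was 0.47 (adjusted p = 0.0262). Col5a2 and Col3a1 are neighbours on chromosome 1 with 0 protein-coding genes between them in the reference gene table.

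**Figure D2:**
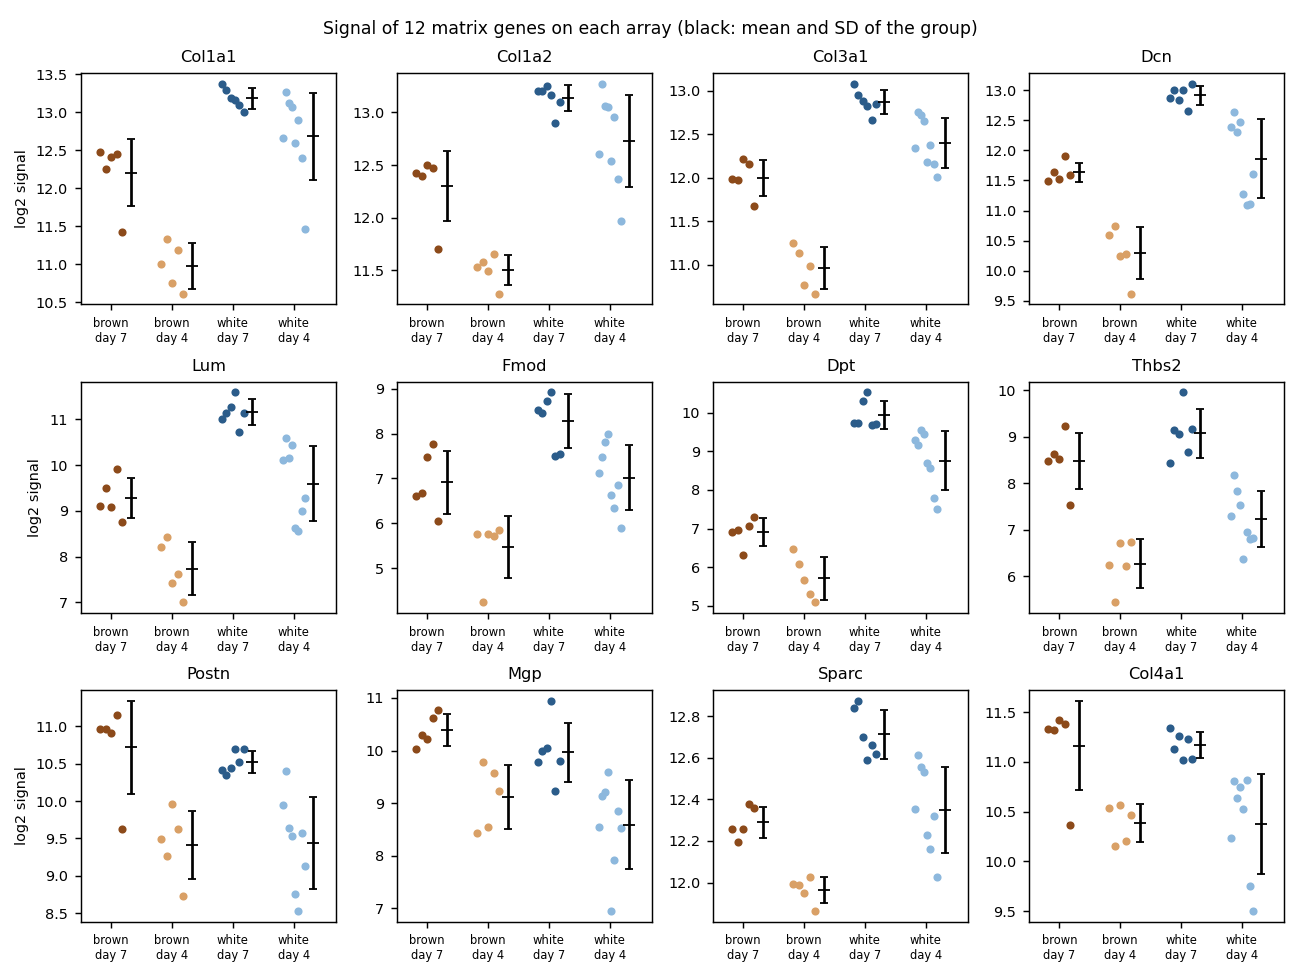
Log2 signal of 12 matrix genes on each of the 24 arrays, from brown cells at day 7 (5 arrays) and day 4 (5) and white cells at day 7 (6) and day 4 (8), with the group mean and SD in black. In most panels day 7 lies above day 4 in either cell type and brown lies below white, whereas Postn, Mgp and Col4a1 reach similar signals in both cell types.

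Promoter sequences are shown for 2 fibrillar collagen genes that rose together in brown cells, from RefSeq with build GRCm38.p6. Each runs 5' to 3' along the gene's strand, from 250 bases before to 50 after the annotated start, with the CCAAT motif and the TATAAA motif on either strand (ATTGG and TTTATA when reversed) in capitals. Col1a2 lies at chr6:4505368-4505667, plus strand, and Col3a1 at chr1:45311288-45311587, plus strand.
Col1a2: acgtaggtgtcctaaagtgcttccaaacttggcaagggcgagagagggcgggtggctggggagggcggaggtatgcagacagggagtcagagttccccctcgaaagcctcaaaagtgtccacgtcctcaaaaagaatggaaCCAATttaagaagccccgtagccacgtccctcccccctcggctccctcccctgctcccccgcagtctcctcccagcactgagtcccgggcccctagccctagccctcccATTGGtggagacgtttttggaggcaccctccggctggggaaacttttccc
Col3a1: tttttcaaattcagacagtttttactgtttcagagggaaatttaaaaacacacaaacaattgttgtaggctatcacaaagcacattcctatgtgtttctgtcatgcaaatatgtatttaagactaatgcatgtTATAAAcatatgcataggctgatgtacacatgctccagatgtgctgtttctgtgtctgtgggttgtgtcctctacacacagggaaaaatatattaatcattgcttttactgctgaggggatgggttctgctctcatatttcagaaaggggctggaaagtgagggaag
The Col1a2 window holds CCAAT 109 bases before the start and, on the opposite strand, at the start itself, and no TATAAA. The Col3a1 window holds TATAAA 117 bases before the start and no CCAAT. Among all 32851 RefSeq promoter windows, 37.4% hold CCAAT and 13.6% hold TATAAA on either strand. Of the matrix genes, 23 had an entry, with 28 entries in all, of which 10 (35.7%) held CCAAT and 6 (21.4%) held TATAAA. These are letter matches and not measured binding sites.

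Most genes in the group of proteoglycans and dermatopontin, a protein that binds decorin, passed in several comparisons. Of 6 genes, 4 rose in brown and 4 in white cells, 1 fell in white cells, 4 were lower in brown on each day and 1 was higher in brown at day 7. Decorin, lumican, fibromodulin and dermatopontin were the 4 in each case, and versican was the exception. Among all genes tested, 6.46% rose in brown and 9.03% in white cells, and 10.5% fell in white cells. Brown against white, 12.3% were lower and 13.2% higher in brown at day 7, and 12.8% were lower at day 4. By its brighter probe set, biglycan (Bgn) was called in no comparison, with differences of 0.17 ± 0.13 and 0.01 ± 0.11 between the days in brown and white cells and of 0.22 ± 0.12 between the cell types at day 7. Its other probe set, 162347_f_at, was lower in brown at day 7, with signals of 512, 741, 706, 653 and 623 on brown arrays against 752, 928 and 1035 (lowest, median, highest) on white arrays, which did not overlap. The difference was -0.47 ± 0.13 (adjusted p = 0.00909), so the probe sets disagree in sign there.

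Decorin (Dcn) binds collagen fibrils and limits their growth. Its signals were 2885, 3206, 2949.8, 3842 and 3077 on brown day 7 arrays and 1537, 1715, 1215, 1239 and 783 on brown day 4 arrays. In white cells the lowest, median and highest were 6446, 7825 and 8812 at day 7 and 2185, 4097 and 6341 at day 4. Days did not overlap in either cell type, and brown arrays lay below white arrays on both days. Decorin rose by 1.34 ± 0.26 in brown (adjusted p = 0.00107) and by 1.05 ± 0.22 in white cells (adjusted p = 0.00168). It was lower in brown by 1.28 ± 0.24 at day 7 (adjusted p = 0.000360) and by 1.57 ± 0.23 at day 4 (adjusted p = 1.64e-05).

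Lumican (Lum), a related fibril-spacing proteoglycan, is the neighbour of Dcn on chromosome 10, with 0 protein-coding genes between them. It read 555, 720.5, 546, 961 and 436 on brown day 7 arrays and 298, 345, 172, 197 and 128 on brown day 4 arrays. White cells had 1705, 2270.4 and 3093 (lowest, median, highest) at day 7 and 379.6, 862 and 1552 at day 4. As with Dcn, the groups were apart in all 4 comparisons. The day differences were almost equal, at 1.54 ± 0.34 (adjusted p = 0.00326) in brown and 1.56 ± 0.29 (adjusted p = 0.000669) in white cells. So were the cell type differences, at -1.88 ± 0.32 (adjusted p = 0.000116) on day 7 and -1.86 ± 0.31 (adjusted p = 7.48e-05) on day 4.

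Fibromodulin (Fmod), which also binds fibrils and guides their cross-linking, read 97.0, 102, 179, 218 and 66.2 on brown day 7 arrays and 54.6, 18.9, 54.5, 52.6 and 58.0 on brown day 4 arrays. White cells read 181, 359 and 484 (lowest, median, highest) at day 7 and 59.4, 128 and 252 at day 4. Array 06 stood low among the brown day 4 arrays, and the cell types were apart at day 4 and overlapped at day 7. Fmod rose by 1.44 ± 0.39 in brown (adjusted p = 0.0143) and by 1.27 ± 0.33 in white cells (adjusted p = 0.00882). The brown call was lost without array 12 of brown day 7 (adjusted p = 0.0555). Brown minus white was -1.37 ± 0.37 (adjusted p = 0.00804) at day 7 and -1.54 ± 0.35 (adjusted p = 0.00207) at day 4.

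Dermatopontin (Dpt), which binds decorin and promotes fibril assembly, showed the widest gap between the cell types of all 33 genes. Its signals were 119.8, 124, 79.2, 135 and 158 on brown day 7 arrays and 88.3, 67.3, 50.6, 39.9 and 34.05 on brown day 4 arrays. White cells had 820.0, 848 and 1474 (lowest, median, highest) at day 7 and 183, 493.2 and 752 at day 4. No brown array of either day reached the lowest white array. Brown minus white was -3.03 ± 0.31 (adjusted p = 6.57e-08) at day 7 and -3.03 ± 0.29 (adjusted p = 1.78e-08) at day 4, which is 0.122 and 0.122 times the white signal. The day differences were also alike, at 1.19 ± 0.32 (adjusted p = 0.0157) in brown and 1.19 ± 0.28 (adjusted p = 0.00394) in white cells. The brown one was lost without array 19 of brown day 4 (adjusted p = 0.0533).

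The Dpt window is shown because Dpt had the largest difference between the cell types. It lies at chr1:164796413-164796712, plus strand, and the TATAAA in capitals begins 12 bases after the annotated start.
Dpt: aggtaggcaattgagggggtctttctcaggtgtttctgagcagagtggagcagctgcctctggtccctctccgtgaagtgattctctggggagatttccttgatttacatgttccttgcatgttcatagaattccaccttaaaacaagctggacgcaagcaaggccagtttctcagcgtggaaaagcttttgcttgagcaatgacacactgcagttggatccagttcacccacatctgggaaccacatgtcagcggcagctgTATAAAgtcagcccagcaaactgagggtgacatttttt
No CCAAT stands in this window on either strand.

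Versican (Vcan), a large proteoglycan that binds hyaluronan, went the other way. Its signals were 55.9, 46.7, 128, 81.5 and 39.1 on brown day 7 arrays and 86.8, 63.2, 94.4, 101.0 and 51.3 on brown day 4 arrays. White cells had 11.6, 20.3 and 87.9 (lowest, median, highest) at day 7 and 32.9, 76.5 and 208 at day 4. The white day 7 arrays were low except for array 39, which was the highest of the 6 and overlapped day 4. Versican fell by 1.61 ± 0.40 in white cells (adjusted p = 0.00628) and did not pass in brown cells, at -0.27 ± 0.47 (adjusted p = 0.791). It was higher in brown by 1.45 ± 0.45 at day 7 (adjusted p = 0.0191), a call lost without array 11 of brown day 7 (adjusted p = 0.0673). With the floor on dim values at the 40th percentile the day 7 difference was 0.87 (adjusted p = 0.105) and the white fall was -1.04 (adjusted p = 0.0376). The day 4 difference was 0.10 ± 0.42 (adjusted p = 0.905), and the difference between the changes, 1.35 ± 0.62, did not pass (adjusted p = 0.583).

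Most matricellular and mineral-binding proteins rose, with 4 of 5 higher at day 7 in each cell type: Thbs2, Postn, Mgp and Sparc. Of these, only Sparc differed between the cell types at day 7, and Sparc and Thbs2 at day 4, all lower in brown. Among all genes tested, 6.46% rose in brown and 9.03% in white cells, and 12.3% and 12.8% were lower in brown at day 7 and day 4. Tnc, which encodes the anti-adhesive tenascin C, passed in no comparison, with -0.08 ± 0.37 in brown and 0.16 ± 0.31 in white cells between days.

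Thrombospondin 2 (Thbs2), which helps clear matrix metalloproteinases and restrains vessel growth, had the largest day difference of the 33 genes in both cell types. It read 358, 397, 371, 599 and 187 on brown day 7 arrays and 75.4, 43.3, 105, 74.8 and 107 on brown day 4 arrays. White cells had 345, 551 and 997 (lowest, median, highest) at day 7 and 83.3, 141 and 291 at day 4. Day 7 and day 4 were apart in both cell types. The rise was 2.21 ± 0.32 in brown (adjusted p = 0.000110), a fold of 4.64, and 1.85 ± 0.28 in white cells (adjusted p = 9.57e-05), a fold of 3.596. Brown cells were lower at day 4 by 0.96 ± 0.29 (adjusted p = 0.0184), a call lost without array 06 of brown day 4 (adjusted p = 0.0827), and the day 7 value was -0.59 ± 0.31 (adjusted p = 0.173).

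The Thbs2 window is shown because Thbs2 had the largest day difference. It lies at chr17:14694213-14694512, minus strand, with CCAAT 144 bases before the start, its reverse at 186 and the reverse of TATAAA at 126.
Thbs2: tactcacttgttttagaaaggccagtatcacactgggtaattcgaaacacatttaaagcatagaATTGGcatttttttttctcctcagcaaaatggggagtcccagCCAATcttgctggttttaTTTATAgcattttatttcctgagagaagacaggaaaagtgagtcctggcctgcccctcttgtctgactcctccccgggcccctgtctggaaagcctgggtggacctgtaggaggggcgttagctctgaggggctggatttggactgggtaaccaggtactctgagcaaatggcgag

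Periostin (Postn), a collagen-binding adhesion protein, read 1992, 1991, 1927, 2269 and 787 on brown day 7 arrays and 721, 615, 995, 790.2 and 425 on brown day 4 arrays. White cells had 1305, 1427 and 1659.9 (lowest, median, highest) at day 7 and 369, 750.0 and 1348 at day 4. In brown cells 4 of the 5 day 7 arrays lay far above day 4 and array 22 lay within it. Postn rose by 1.31 ± 0.29 in brown (adjusted p = 0.00322) and 1.08 ± 0.25 in white cells (adjusted p = 0.00330). Brown minus white it measured 0.20 ± 0.28 (adjusted p = 0.646) at day 7 and -0.02 ± 0.26 (adjusted p = 0.967) at day 4.

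Matrix Gla protein (Mgp), an inhibitor of mineral deposition, read 1047, 1262, 1196, 1563 and 1747 on brown day 7 arrays and 344, 885, 377, 766 and 602 on brown day 4 arrays. White cells had 599, 956 and 1973 (lowest, median, highest) at day 7 and 124, 420.5 and 776 at day 4. Here brown day 7 array 22 was the highest of its group. The rise was 1.27 ± 0.36 in brown (adjusted p = 0.02004) and 1.37 ± 0.31 in white cells (adjusted p = 0.00313), and the brown call was lost without any 1 of array 12 of brown day 7 and arrays 05 and 09 of brown day 4 (adjusted p between 0.0521 and 0.0664). Its cell type differences were 0.42 ± 0.35 (adjusted p = 0.414) at day 7 and 0.52 ± 0.33 (adjusted p = 0.271) at day 4.

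Sparc, a collagen chaperone outside the cell, had small and even differences. It read 4894, 4696, 4893, 5327 and 5245 on brown day 7 arrays and 4077, 4064, 3954, 4173 and 3725 on brown day 4 arrays. White cells had 6155, 6569.6 and 7506 (lowest, median, highest) at day 7 and 4177, 5176 and 6268 at day 4. The brown days were apart by a narrow margin relative to their signal, and brown lay below white on both days. Sparc rose by 0.33 ± 0.11 in brown (adjusted p = 0.0415) and 0.36 ± 0.09 in white cells (adjusted p = 0.00610). The brown rise was the one nearest the threshold, and it was lost on leaving out each brown array in turn (adjusted p between 0.0553 and 0.103). Sparc was lower in brown by 0.42 ± 0.10 at day 7 (adjusted p = 0.00277) and 0.39 ± 0.09 at day 4 (adjusted p = 0.00409).

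Of 9 basement membrane genes, 2 rose in brown and 3 in white cells, 2 were lower and 1 was higher in brown at day 7, and 3 were lower in brown at day 4. Col4a1 and Col4a2 rose in both cell types and did not pass between them, Lama2 passed between the cell types alone, and Lamb1 passed in both kinds of comparison. Col15a1, Lama4 and Lamc1 passed in no comparison.

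Col4a1 and Col4a2 encode the chains that make up the common type IV network of every basement membrane. Col4a1 read 2581, 2548, 2747, 2665 and 1316 on brown day 7 arrays and 1486, 1141, 1516, 1179 and 1416 on brown day 4 arrays. White cells had 2075, 2318 and 2586 (lowest, median, highest) at day 7 and 725, 1535 and 1799 at day 4. In brown cells only array 22 overlapped day 4, and the white days were apart. It rose by 0.78 ± 0.22 in brown (adjusted p = 0.0183) and by 0.79 ± 0.19 in white cells (adjusted p = 0.00424). Its brown call was lost without any 1 of arrays 08 and 12 of brown day 7 (adjusted p between 0.0517 and 0.0539). Brown and white cells differed by 0.00 ± 0.21 at day 7 (adjusted p = 0.990) and 0.01 ± 0.20 at day 4 (adjusted p = 0.984).

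Col4a2 followed Col4a1 closely. Its signals were 3106, 2984, 3079, 2821 and 1358 on brown day 7 arrays and 1669, 1384, 1629, 1101 and 1646 on brown day 4 arrays. White cells had 2203, 2484 and 2843 (lowest, median, highest) at day 7 and 755, 1501 and 2432 at day 4. Array 22 again overlapped brown day 4, and the other brown day 7 arrays did not. The rise was 0.80 ± 0.25 in brown (adjusted p = 0.0319) and 0.79 ± 0.21 in white cells (adjusted p = 0.00945). The brown call was lost without any 1 of arrays 07, 08, 11 and 12 of brown day 7 and arrays 06 and 10 of brown day 4 (adjusted p between 0.0535 and 0.0943). The brown minus white value of Col4a2 was 0.03 ± 0.24 at day 7 (adjusted p = 0.939) and 0.02 ± 0.22 at day 4 (adjusted p = 0.955).

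The 2 genes are head-to-head neighbours on chromosome 8, and their windows are shown because the pair had nearly equal differences in every comparison. The annotated starts lie 21 bases apart on opposite strands and the windows share 78 bases. Col4a1 lies at chr8:11312777-11313076, minus strand, and Col4a2 at chr8:11312555-11312854, plus strand.
Col4a1: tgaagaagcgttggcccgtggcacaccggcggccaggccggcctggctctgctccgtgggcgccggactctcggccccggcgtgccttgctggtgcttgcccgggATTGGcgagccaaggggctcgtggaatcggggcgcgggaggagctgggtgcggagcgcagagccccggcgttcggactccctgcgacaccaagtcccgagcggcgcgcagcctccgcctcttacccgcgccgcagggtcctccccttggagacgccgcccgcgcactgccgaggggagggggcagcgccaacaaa
Col4a2: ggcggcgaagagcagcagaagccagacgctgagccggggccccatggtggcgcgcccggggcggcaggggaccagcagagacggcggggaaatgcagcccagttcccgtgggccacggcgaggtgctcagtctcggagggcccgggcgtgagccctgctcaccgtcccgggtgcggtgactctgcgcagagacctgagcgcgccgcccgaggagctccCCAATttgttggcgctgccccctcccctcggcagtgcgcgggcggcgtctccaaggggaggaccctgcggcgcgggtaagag
Each window holds CCAAT once, reversed and 145 bases before the start in Col4a1 and 32 bases before it in Col4a2, and neither holds TATAAA.

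Lama2 encodes the laminin alpha 2 chain. It read 65.3, 80.8, 115, 94.1 and 35.4 on brown day 7 arrays and 93.4, 56.2, 144, 85.5 and 68.4 on brown day 4 arrays. White cells had 161, 199.8 and 217 (lowest, median, highest) at day 7 and 89.0, 137 and 294 at day 4. The cell types were apart at day 7 and overlapped at day 4. Lama2 was lower in brown by 1.40 ± 0.29 at day 7 (adjusted p = 0.000922) and by 0.97 ± 0.28 at day 4 (adjusted p = 0.0124), the day 4 call being lost without array 06 of brown day 4 (adjusted p = 0.0507). Between days it measured -0.22 ± 0.31 (adjusted p = 0.717) in brown and 0.21 ± 0.26 (adjusted p = 0.630) in white cells.

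Lamb1, the laminin beta 1 chain, read 332, 298, 328, 303 and 281 on brown day 7 arrays and 310.0, 269, 290.3, 258 and 247 on brown day 4 arrays. White cells had 482, 586 and 709.7 (lowest, median, highest) at day 7 and 252, 454 and 615 at day 4. All brown day 7 arrays lay below all white day 7 arrays. The gene was lower in brown by 0.92 ± 0.17 at day 7 (adjusted p = 0.000301) and 0.61 ± 0.16 at day 4 (adjusted p = 0.00805). Its white rise of 0.48 ± 0.15 (adjusted p = 0.0300) was lost without any 1 of arrays 35, 39 and 43 of white day 7 and arrays 38, 45 and 51 of white day 4 (adjusted p between 0.05003 and 0.0775) and, without arrays 45 and 51 together, was 0.27 (adjusted p = 0.145). A second probe set, 101948_at, gave 0.06 ± 0.19 (adjusted p = 0.869) between the white days and -0.53 ± 0.21 (adjusted p = 0.0642) between the cell types at day 7. The brighter probe set, 162263_f_at, carries the suffix for sequence families and may also bind related transcripts.

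Nid1, which encodes the laminin-binding linker nidogen 1, ranged from 109.9 to 173 at day 7 and 76.0 to 174 at day 4 in brown cells, and 189 to 263 at day 7 and 84.9 to 385 at day 4 in white cells. It was lower in brown at day 4 by 0.93 ± 0.28 (adjusted p = 0.0160), a call lost without array 06 of brown day 4 (adjusted p = 0.0658). At day 7 the arrays of the cell types did not overlap, yet the difference of -0.72 ± 0.29 (adjusted p = 0.0752) missed the threshold. Col15a1, a collagen of the outer basement membrane zone, measured 0.74 ± 0.36 (adjusted p = 0.201) in brown and 0.78 ± 0.31 (adjusted p = 0.0789) in white cells between days. The laminin chains Lama4 and Lamc1 measured 0.37 ± 0.27 and -0.02 ± 0.23 in brown and 0.55 ± 0.23 and 0.16 ± 0.19 in white cells. The Lamc1 probe set, 161706_f_at, also carries the suffix for sequence families, and the gene's other probe set was too dim to be tested.

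Col18a1 encodes the basement membrane collagen XVIII, from whose end the vessel growth inhibitor endostatin is cut. It was the single member with a probe set that passed the test of the difference between the brown and white changes. Its brightest probe set, 99638_at, read 472, 471, 479, 404 and 268 on brown day 7 arrays and 284, 340.0, 260.3, 345 and 386 on brown day 4 arrays. White cells had 200.1, 221 and 320.1 (lowest, median, highest) at day 7 and 192, 264 and 326 at day 4. Only brown day 7 array 22 fell within the white day 7 range. By this probe set Col18a1 was higher in brown by 0.76 ± 0.17 at day 7 (adjusted p = 0.00127), with 0.30 ± 0.16 (adjusted p = 0.183) at day 4. The day differences were 0.36 ± 0.17 (adjusted p = 0.194) in brown and -0.11 ± 0.15 (adjusted p = 0.662) in white cells.

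A second Col18a1 probe set, 101881_g_at, gave signals of 317, 262, 266, 281 and 185 on brown day 7 arrays and 165, 103, 151, 120.3 and 167 on brown day 4 arrays. Its white signals were 42.7, 61.2 and 114 (lowest, median, highest) at day 7 and 69.6, 93.6 and 157 at day 4. Brown day 7 lay above every other group, and white day 7 was on the whole the lowest. It rose in brown cells by 0.90 ± 0.23 (adjusted p = 0.0117) and fell by 0.58 ± 0.20 in white cells (adjusted p = 0.0418), and the difference between these changes was 1.48 ± 0.31 (adjusted p = 0.0423). That call was lost on leaving out 17 of the 24 arrays in turn (adjusted p between 0.0503 and 0.103), and the white fall on leaving out 10 of the 14 white arrays (adjusted p between 0.0520 and 0.119). At day 7 it was higher in brown by 2.03 ± 0.22 (adjusted p = 2.32e-07), a fold of 4.07.

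The other tested Col18a1 probe sets, 101882_s_at and 162483_f_at, were higher in brown at day 7 as well, at 2.98 ± 0.46 (adjusted p = 2.79e-05) and 2.10 ± 0.41 (adjusted p = 0.000472). At day 4 the first of them was also called higher in brown, at 1.29 ± 0.43 (adjusted p = 0.0317), a call lost without any 1 of arrays 05, 06 and 09 of brown day 4 and arrays 38, 42 and 51 of white day 4 (adjusted p between 0.0539 and 0.0760), while 101881_g_at measured 0.55 ± 0.21 (adjusted p = 0.0620) and 162483_f_at 0.97 ± 0.39 (adjusted p = 0.0735). All 4 had a positive day difference in brown and a negative one in white cells, but for the difference of these changes the 3 others measured 0.46 ± 0.23 (adjusted p = 0.6249), 1.69 ± 0.63 (adjusted p = 0.408) and 1.13 ± 0.57 (adjusted p = 0.651). The last of them lay at the floor on 2 white day 7 arrays, so its size there depends on the floor.

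**Figure D3:**
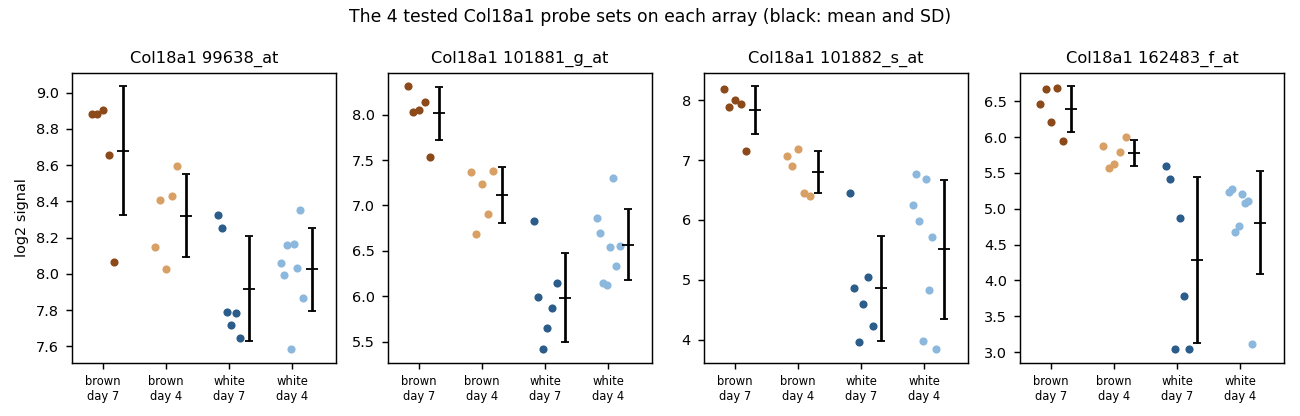
Log2 signal of the 4 tested Col18a1 probe sets on each of the 24 arrays, by group, with the mean and SD in black (5, 5, 6 and 8 arrays). In every panel brown day 7 has the highest mean and white day 7 the lowest, and the gap is widest for 101882_s_at, where the day 7 difference was 2.98 ± 0.46 log2.

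RefSeq lists 2 starts for Col18a1, 52.8 kb apart, and both windows are shown because its probe sets differed in size of response. They lie at chr10:77166481-77166780, minus strand, and at chr10:77113656-77113955, minus strand.
Col18a1 upstream start: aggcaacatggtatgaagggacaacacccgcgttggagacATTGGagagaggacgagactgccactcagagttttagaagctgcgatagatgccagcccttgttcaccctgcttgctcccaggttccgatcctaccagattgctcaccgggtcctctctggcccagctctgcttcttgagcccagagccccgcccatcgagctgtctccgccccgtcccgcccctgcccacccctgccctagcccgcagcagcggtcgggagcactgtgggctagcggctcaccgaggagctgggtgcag
Col18a1 downstream start: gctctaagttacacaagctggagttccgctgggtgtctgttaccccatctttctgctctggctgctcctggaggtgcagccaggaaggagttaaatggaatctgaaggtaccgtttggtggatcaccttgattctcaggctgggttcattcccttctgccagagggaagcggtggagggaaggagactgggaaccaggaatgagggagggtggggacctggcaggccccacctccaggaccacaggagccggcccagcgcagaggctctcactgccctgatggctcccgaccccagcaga
The upstream window holds CCAAT once, reversed, 210 bases before the start, and the downstream window holds neither motif. Which start the probe sets report was not tested.

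Type VI collagen, whose beaded filaments tie the basement membrane to fibrils, had 3 chains on the array and 1 call, that of Col6a3 as higher in brown at day 7. Among all genes tested, 13.2% were higher in brown there. Col6a3 read 2953, 2454, 3271, 2400.0 and 916 on brown day 7 arrays and 2229, 1498, 1556, 1264 and 1322 on brown day 4 arrays. White cells had 1147, 1259 and 1521 (lowest, median, highest) at day 7 and 447, 1282 and 1579 at day 4. Apart from array 22 the brown day 7 arrays lay above every white array. The brown excess at day 7 was 0.78 ± 0.28 (adjusted p = 0.0440), just inside the threshold and lost without any 1 of arrays 07, 08, 11 and 12 of brown day 7 and arrays 36, 39, 40, 43 and 44 of white day 7 (adjusted p between 0.0583 and 0.130). Without brown day 7 array 22 it was 1.10 (adjusted p = 0.00223), and the brown day difference was 0.83 (adjusted p = 0.0307) in place of 0.52 ± 0.30 (adjusted p = 0.290).

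Col6a1 and Col6a2, neighbours on chromosome 10 with 0 protein-coding genes between them, passed in no comparison. Their day differences were 0.62 ± 0.28 (adjusted p = 0.153) and 0.59 ± 0.34 (adjusted p = 0.292) in brown cells, and 0.31 ± 0.24 (adjusted p = 0.382) and 0.68 ± 0.29 (adjusted p = 0.101) in white cells. Without array 22 the brown value of Col6a1 was 0.88 (adjusted p = 0.0215) and its brown minus white value at day 7 was 0.68 (adjusted p = 0.0476). Col6a1 lies 2 protein-coding genes away from Col18a1.

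Elastic and fibronectin fibre genes did not pass between days in either cell type, yet 3 of 5 were lower in brown at day 7 and 4 of 5 at day 4. The medians between the cell types were -0.59 log2 at day 7 and -0.74 at day 4. Eln, the gene of elastin, was the one with no call, at -0.51 ± 0.30 and -0.41 ± 0.29. Among all genes tested, 12.3% were lower in brown at day 7 and 12.8% at day 4.

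Fibulin 1 (Fbln1) and fibulin 2 (Fbln2) bind elastic fibres and basement membranes. Fbln1 read 306, 328, 395, 398 and 241 on brown day 7 arrays and 300.4, 259, 306, 273 and 298 on brown day 4 arrays, with 459.8, 557 and 933 (lowest, median, highest) in white cells at day 7 and 433, 575 and 649 at day 4. Fbln2 read 1203, 1349, 1599, 1429.5 and 863 on brown day 7 arrays and 1262, 1136, 1880.5, 1611 and 1501 on brown day 4 arrays, with 2754, 3407 and 3521 in white cells at day 7 and 1841, 3076 and 3637 at day 4. Brown arrays lay below white arrays on both days for Fbln1, and at day 7 for Fbln2. Fbln1 was lower in brown by 0.87 ± 0.16 at day 7 (adjusted p = 0.000211) and 0.96 ± 0.15 at day 4 (adjusted p = 3.77e-05). Fbln2 was lower by 1.38 ± 0.17 at day 7 (adjusted p = 8.61e-07) and 1.01 ± 0.16 at day 4 (adjusted p = 3.45e-05). The other Fbln1 probe sets, 94307_at and 94308_at, gave -1.69 ± 0.19 (adjusted p = 2.22e-07) and -0.61 ± 0.15 (adjusted p = 0.00288) at day 7. The first of these also rose between the white days, at 0.59 ± 0.17 (adjusted p = 0.0145), and lost that call without white day 4 arrays 45 and 51, at 0.43 (adjusted p = 0.0619).

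Fibronectin (Fn1), the fibre-forming adhesion protein of early matrix, read 643, 676, 698, 577 and 447 on brown day 7 arrays and 437, 422, 519, 468 and 459.7 on brown day 4 arrays. White cells had 841, 899 and 989 (lowest, median, highest) at day 7 and 510.1, 775 and 962 at day 4. Brown lay below white at day 7 without overlap. Fn1 was lower in brown by 0.59 ± 0.15 at day 7 (adjusted p = 0.00369) and 0.68 ± 0.14 at day 4 (adjusted p = 0.000750). Between days it measured 0.38 ± 0.15 (adjusted p = 0.105) in brown and 0.30 ± 0.13 (adjusted p = 0.106) in white cells. The brown value passed without brown day 7 array 22, at 0.49 (adjusted p = 0.0291), and the white value without white day 4 array 34, at 0.36 (adjusted p = 0.0454).

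Lox, the lysyl oxidase that cross-links collagen and elastin, ranged from 673 to 1089 at day 7 and 548 to 1047 at day 4 in brown cells, and 975 to 1708 at day 7 and 636 to 2152 at day 4 in white cells. It was lower in brown at day 4 by 0.74 ± 0.24 (adjusted p = 0.0234), a call lost without any 1 of arrays 06 and 19 of brown day 4 (adjusted p between 0.0525 and 0.0771). At day 7 it measured -0.57 ± 0.25 (adjusted p = 0.0969), and its second probe set, 161177_f_at, passed there at -0.96 ± 0.33 (adjusted p = 0.0330), a call lost without any 1 of arrays 07, 08 and 12 of brown day 7 and arrays 40, 43 and 44 of white day 7 (adjusted p between 0.0563 and 0.0967). The mean of both probe sets passed at -0.77 (adjusted p = 0.00913).

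**Figure D4:**
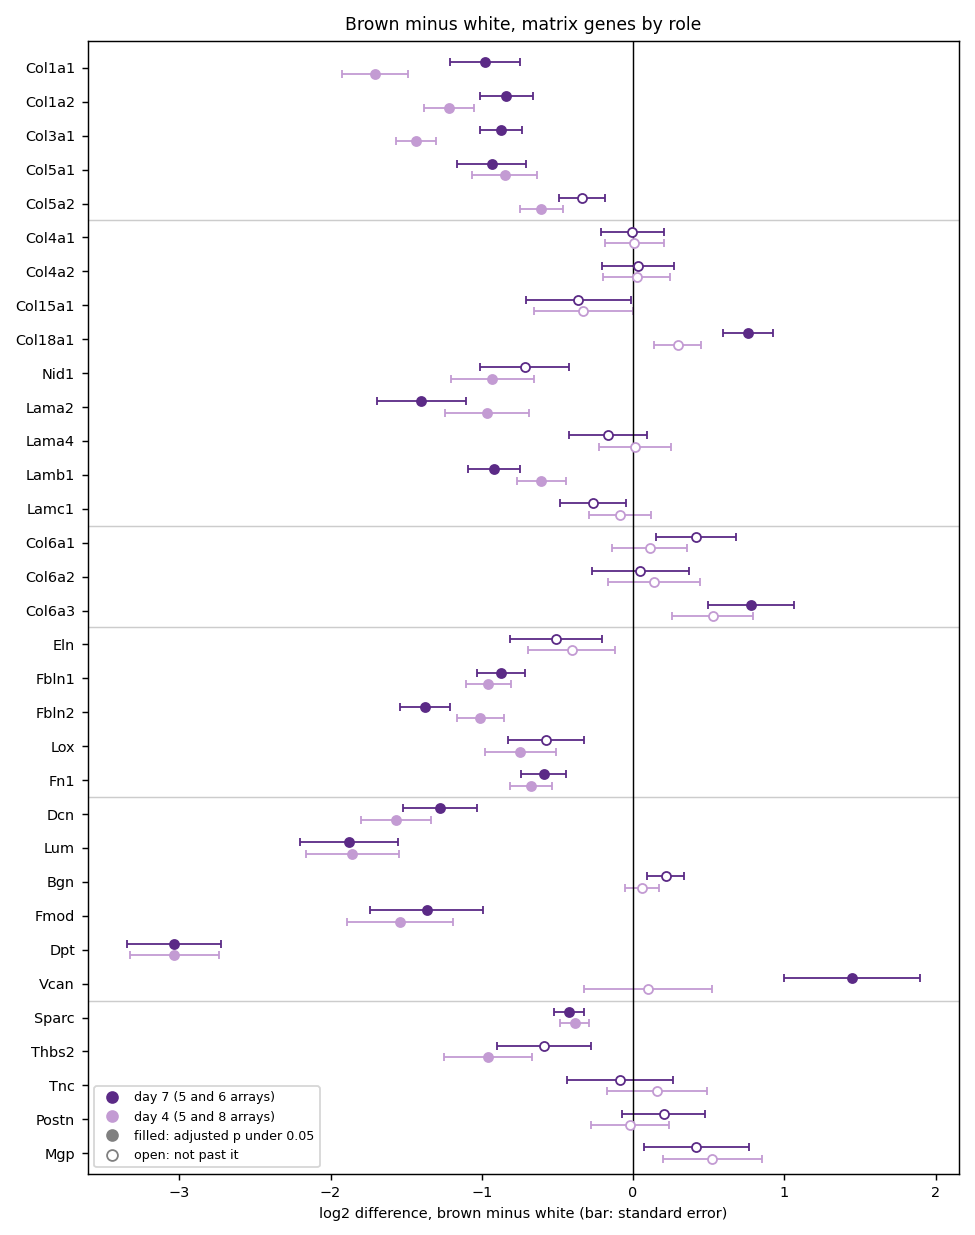
Log2 difference, brown minus white, with its standard error, for the 33 matrix genes at day 7 (5 and 6 arrays) and day 4 (5 and 8 arrays), in the same grouping as the day differences. Filled points passed the test. Dpt lies farthest left, at -3.03 on both days, and the filled points right of 0 are Col18a1, Col6a3 and Vcan at day 7.

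Single arrays set the size of several brown values. Without brown day 7 array 22, 18 genes in place of 13 rose between the brown days, 12 of them shared. Fn1, Col5a1, Col5a2, Col6a1, Col6a3 and Col18a1 were added and Sparc was lost. Without brown day 7 array 08, 10 of the 13 brown day calls remained and no gene was added. With runs of neighbouring array numbers as a block, 18 genes passed in brown and 12 in white cells. The difference between the brown and white changes then passed for Col1a1, at 0.98 (adjusted p = 0.0312), and Col3a1, at 0.67 (adjusted p = 0.0320). With this block the calls over all probe sets went from 1012 to 1612 in brown and from 1595 to 1436 in white cells. For the difference of the changes they went from 18 to 48. Without white day 4 arrays 45 and 51, 12 of the 14 white day calls remained, and those of Col5a1 and Lamb1 were lost.

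Some markers of other cell types also differed between the groups. Among all genes tested, 6.46% were higher and 6.50% lower at day 7 in brown cells, and 9.03% and 10.5% in white cells. Brown against white, 13.2% were higher and 12.3% lower in brown at day 7, and 11.7% and 12.8% at day 4. Counts near these shares do not set a marker list apart. Of 9 tested smooth muscle and pericyte markers, 4 were higher at day 7 in brown and 3 in white cells. As for cell type, 3 were higher and 5 lower in brown at day 7, and 4 were lower at day 4. Their summed signal ranged over 3895 to 5864 at day 7 and 2925 to 3837 at day 4 in brown cells, and 6348 to 9341 at day 7 and 4442 to 8291 at day 4 in white cells. Of 9 tested macrophage markers (of 12 with a probe set), 1 was higher at day 7 in brown and 3 in white cells, and 4 were lower in brown on each day. Their sums were 681 to 911 at day 7 and 532 to 619 at day 4 in brown cells, and 882 to 1423 at day 7 and 651 to 1800.5 at day 4 in white cells, and Itgam lay at the floor on every array. Adgre1 and Ptprc were also too dim to be tested. Cd14 was the brightest macrophage marker in every group, with day 7 medians of 382 in brown and 554 in white cells. Of 8 fibroblast and preadipocyte markers 0 were higher and 1 was lower at day 7 in each cell type, and 3 were higher and 2 lower in brown on each day, with sums of 2412 to 3272 at day 7 and 2707 to 3964 at day 4 in brown cells, and 2524 to 3313 at day 7 and 2475 to 4038 at day 4 in white cells. Of 7 skeletal muscle markers, 3 were higher in brown at day 7 and 6 at day 4, with sums of 591 to 717 at day 7 and 987 to 1496 at day 4 in brown cells, and 266 to 489 at day 7 and 262 to 364 at day 4 in white cells. Between days, 2 of the 7 were lower at day 7 in brown cells and 2 were higher in white cells. The difference of the changes passed for 1 of the 7, with the lower value in brown, against 0.0478% of all genes tested. Of 6 tested endothelial markers (of 8 with a probe set), 1 was higher and 1 lower at day 7 in brown cells and 0 passed in white cells. Brown cells were higher for 3 of them and lower for 0 on each day, with medians over the 6 of 1.64 log2 at day 7 and 0.70 at day 4. These were Cdh5, at 2.59 ± 0.41 (adjusted p = 3.43e-05) on day 7 and 1.39 ± 0.38 (adjusted p = 0.00966) on day 4, Emcn, at 2.78 ± 0.36 (adjusted p = 2.40e-06) and 1.72 ± 0.34 (adjusted p = 0.000561), and Tie1, at 2.68 ± 0.27 (adjusted p = 5.81e-08) and 1.11 ± 0.26 (adjusted p = 0.00231). The direction of Cdh5, Emcn and Tie1 was that of Col18a1 at day 7, and so was that of all 5 tested brown adipocyte markers. The other tested endothelial markers, Pecam1, Eng and Kdr, did not pass between the cell types. Their day 7 medians in brown and white cells were 57.8 and 83.9 for Pecam1, 967 and 1254 for Eng, and 33.8 and 13.7 for Kdr. Eng was the brightest endothelial marker in every group. The summed endothelial signal ranged over 1399 to 1991 at day 7 and 1595 to 2886 at day 4 in brown cells, and 1379.8 to 1811 at day 7 and 1349 to 1981 at day 4 in white cells. The part of these cells in the matrix differences was not tested.

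Other structural matrix genes came from a list of 76, of which 42 were tested. In brown cells 7 were higher and 0 lower at day 7, and in white cells 10 were higher and 1 was lower. Among all genes tested, 6.46% were higher and 6.50% lower in brown cells, and 9.03% and 10.5% in white cells. Brown against white, 4 were higher and 14 lower in brown at day 7, and 3 were higher and 16 lower at day 4. The shares of all genes tested were 13.2% higher and 12.3% lower at day 7, and 11.7% and 12.8% at day 4. The largest rises in brown cells were Ccn3, a secreted CCN family protein, at 2.09 ± 0.41 (adjusted p = 0.00143), the microfibril protein gene Mfap2 at 1.61 ± 0.25 (adjusted p = 0.000186) and serglycin (Srgn) at 1.60 ± 0.38 (adjusted p = 0.00638). In white cells they were Srgn at 1.51 ± 0.33 (adjusted p = 0.00239), Smoc2 at 1.47 ± 0.31 (adjusted p = 0.00182) and vitronectin (Vtn) at 1.39 ± 0.39 (adjusted p = 0.0136), and nidogen 2 (Nid2) fell, at -0.66 ± 0.19 (adjusted p = 0.0137). Osteoglycin (Ogn), a leucine-rich proteoglycan like lumican, was lower in brown on both days, at -2.77 ± 0.37 (adjusted p = 3.52e-06) and -2.39 ± 0.35 (adjusted p = 1.45e-05). So was the microfibril-bound protein gene Ltbp2, at -2.09 ± 0.26 (adjusted p = 1.22e-06) and -2.24 ± 0.24 (adjusted p = 1.53e-07), whereas Ccn3 and Ccn5 were higher in brown at day 7, at 2.03 ± 0.40 (adjusted p = 0.000425) and 1.81 ± 0.32 (adjusted p = 0.000134).

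Genes for collagen synthesis and cross-linking numbered 14 tested of 27 listed. At day 7, 3 were higher in brown cells, with 0 lower, and 3 were higher and 2 lower in white cells. Among all genes tested, 6.46% were higher and 6.50% lower in brown cells, and 9.03% and 10.5% in white cells. Set against white cells, 1 was higher and 6 were lower in brown at day 7, and 0 were higher and 9 lower at day 4. The shares of all genes tested were 13.2% higher and 12.3% lower at day 7, and 11.7% and 12.8% at day 4. Bmp1, whose product trims the ends of fibrillar procollagens, rose in brown cells at 0.99 ± 0.26 (adjusted p = 0.0116) and in white cells at 0.69 ± 0.22 (adjusted p = 0.0284), and was lower in brown at -1.14 ± 0.25 (adjusted p = 0.00116) on day 7 and -1.44 ± 0.23 (adjusted p = 5.49e-05) on day 4. Serpinh1, the collagen chaperone of the endoplasmic reticulum, fell in white cells at -0.37 ± 0.09 (adjusted p = 0.00455). Pcolce, which speeds the Bmp1 step, was the gene higher in brown at day 7, at 0.56 ± 0.12 (adjusted p = 0.00104). Mia3, which helps load procollagen for export, rose in white cells at 1.17 ± 0.20 (adjusted p = 0.000403) and was lower in brown at day 7 at -1.28 ± 0.23 (adjusted p = 0.000178).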

How the data were processed

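The authors deposited a linear signal intensity for each probe set and array, and the submitters' processing notes name MAS5 (version: not given in the sources used here). Deposited arrays all had a 2% trimmed mean of 150.1. Each array was scaled to a trimmed mean of 150 (2% per tail), 8.21, the 20th percentile of all values, served as a floor, and values were put on the log2 scale. Median signals ran from 41.9 to 58.9 per array, and precision is limited by the number of arrays. Because MAS5 subtracts mismatch signal, dim values are noisy. A probe set was tested if 5 or more arrays held it above their 40th percentile, and 66 control probe sets were not tested. The tests covered 8397 probe sets (6281 genes), with 1.56% of their values at the floor.

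The platform annotation names 1 gene symbol for 10855 of 12488 probe sets, more than 1 for 396 and no symbol for 1237. Gene identifiers of 10839 single-symbol probe sets were found in the reference gene table, with 0 symbols changed. The files name no genome build, and no probe position is given.

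The 4 group means were fitted on all 24 arrays with limma 3.58.1 in R 4.3.3 (lmFit, eBayes with an intensity trend, 20 residual degrees of freedom), two-sided, with Benjamini-Hochberg adjustment over all 8397 probe sets within a comparison and a threshold of 0.05. Differences are first group minus second, ± standard error. The script was tested on simulated data. The Gapdh ratio was compared with exact permutation tests. The members and lists were chosen with earlier results of these data known. Array values are given for members called in a comparison whose groups do not overlap or among the 8 largest changes there, and genes of other lists are named from the 3 largest changes in each direction. Alternatives covered scaling, floor, filter, variance model, array weights, groups in the fit, the Gapdh ratio, runs of array numbers, the mean of a gene's probe sets and leaving out arrays.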

Additional observations from a re-analysis of the deposited data

Results flagged for a closer look

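Brown day 7 array 22 lay far below the other 4 arrays of its group for 9 matrix genes, by the gap to its nearest neighbour relative to the whole range. The signals were Col4a2 at 1358 (others 2821 to 3106), Col4a1 at 1316 (others 2548 to 2747) and Col6a3 at 916 (others 2400.0 to 3271). For the type I chains they were Col1a1 at 2749 (others 4902 to 5704) and Col1a2 at 3337 (others 5396 to 5814). The remaining ones were Postn at 787 (others 1927 to 2269), Col6a1 at 1044 (others 2258 to 2883), Lama4 at 330.3 (others 784 to 1019) and Lamc1 at 104 (others 298 to 377). Among the brown day 4 arrays, Bgn was highest on array 09 at 7655 (others 5715 to 6017) and Fmod was lowest on array 06 at 18.9 (others 52.6 to 58.0). In all 11 of 136 groups of values were picked out, and chance picks out about 5% of groups.

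The Col18a1 probe set 101881_g_at differed between the cell types in its day 7 minus day 4 change, with a rise of 0.90 in brown cells and a fall of 0.58 in white cells. The difference of the changes was 1.48 ± 0.31 log2 (limma, adjusted p = 0.0423).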

How the results depend on the processing

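No matrix gene, by its brightest probe set, changed the sign of a called difference under any alternative. The same held for the other probe sets, except that the mean of a gene's probe sets was not compared with them. No array number occurs in more than 1 group, so single arrays could not be paired, and runs of neighbouring numbers served as a block between the days. The runs could not be used between the cell types, and a fit of only the groups compared gives no difference of changes.

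Member probe sets called between the brown days numbered 18, and 12 to 23 on leaving out 1 array. Between the white days they numbered 18 (14 to 22 on leaving out 1 array), and 0 with the Gapdh ratio as covariate. At day 7 they numbered 27 brown against white (25 to 29), 8 with the Gapdh ratio, and 28 at day 4 (22 to 28). For the difference of the changes there was 1 (0 to 1 on leaving out 1 array), with 0 under no filter, without the intensity trend, with the Gapdh ratio and without white day 4 arrays 45 and 51, and 4 with runs of array numbers as a block.

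Over all probe sets the brown day count of 1012 became 672 to 1170 on leaving out 1 array, the lowest without brown day 7 array 08, 1665 with array weights and 1612 with the run block. The white day count of 1595 became 1134 to 1910, 37 with the Gapdh ratio and 1046 without white day 4 arrays 45 and 51. At day 7 the count between the cell types was 2112 (1713 to 2040), and 274 with the Gapdh ratio; at day 4 it was 1933 (1548 to 2150). The difference of the changes had 18 calls (7 to 23), with 10 without a floor, 35 with the floor at the 40th percentile, 10 with no filter, 9 with the stricter filter, 45 with array weights, 11 without the trend, 5 with the Gapdh ratio and 48 with the run block. Causes of these shifts were not tested. Signals near the floor limit what can be read from Vcan and the dimmer Col18a1 probe sets.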

Other observations

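Of the 19 tested genes of matrix breakdown (35 listed), 8 were called higher at day 7 in brown cells, against 6.46% of all genes tested, and 3 in white cells, against 9.03%. Most of them did not pass in either, and 0 were lower. Mmp3, the metalloproteinase stromelysin 1, rose at 3.10 ± 0.48 (adjusted p = 0.000186) in brown cells and 1.75 ± 0.41 (adjusted p = 0.00434) in white cells. The other large rises in brown cells were the metalloproteinase gene Mmp11 at 1.51 ± 0.25 (adjusted p = 0.000334) and the membrane protease gene Fap at 1.44 ± 0.27 (adjusted p = 0.00105). Brown against white, 1 of these genes was higher and 5 were lower in brown at day 7, and 0 were higher and 10 lower at day 4. The shares of all genes tested were 13.2% higher and 12.3% lower at day 7, and 11.7% and 12.8% at day 4. Mmp8, a collagenase, was lower in brown at -3.16 ± 0.45 (adjusted p = 8.33e-06) on day 7 and -2.67 ± 0.42 (adjusted p = 4.28e-05) on day 4. Mmp14, the membrane-bound collagenase, was lower at -1.74 ± 0.20 (adjusted p = 3.05e-07) on day 7 and -1.74 ± 0.19 (adjusted p = 9.78e-08) on day 4. Timp3, a metalloproteinase inhibitor held in the matrix, was the gene higher in brown at day 7, at 0.99 ± 0.34 (adjusted p = 0.0348).

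Of the 23 tested matrix receptors (32 listed), 1 was called higher at day 7 in brown and 4 in white cells, and 0 were lower. Of all genes tested, 13.0% and 19.5% were called in these comparisons. The integrin gene Itgb5 rose in both, at 0.52 ± 0.14 (adjusted p = 0.0156) in brown and 0.46 ± 0.12 (adjusted p = 0.00921) in white cells. In the comparison with white cells, 1 was higher and 9 were lower in brown at day 7, and 1 was higher and 6 were lower at day 4. The shares of all genes tested were 13.2% higher and 12.3% lower at day 7, and 11.7% and 12.8% at day 4. The cell surface proteoglycan gene Gpc3 was lower in brown at day 7, at -1.88 ± 0.27 (adjusted p = 1.13e-05), as was Cd47, a receptor of thrombospondins, at -1.61 ± 0.23 (adjusted p = 1.13e-05). Lrp1, an endocytic receptor that takes up matrix proteins, was lower at -1.44 ± 0.27 (adjusted p = 0.000341) on day 7 and -1.26 ± 0.26 (adjusted p = 0.000783) on day 4. Gpc1 was the receptor gene higher in brown on both days, at 0.52 ± 0.16 (adjusted p = 0.0187) and 0.79 ± 0.15 (adjusted p = 0.000412).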
